A study of Mus musculus with 9 samples.

Results

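The genes described here are 9 members of the interleukin-1 (IL-1) family and the inflammasome, out of 31053 genes listed in the files of each library. They were chosen by symbol for what they are known to do: Il1a and Il1b (the 2 agonist cytokines), Il1rn (the receptor antagonist), Il1r2 (the decoy receptor), Il18 (a related cytokine), Nlrp3 (an inflammasome sensor), Casp1 and Casp4 (inflammatory caspases) and Gsdmd (a pore-forming protein). Earlier results of these data were known when they were chosen. All 9 symbols were found in all 9 libraries. The question put to the data was in which sorted brain cells these genes were detected, and whether their levels in microglia differed after CSF1R inhibition and in early repopulation.

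Single-cell RNA was sequenced from live Cd11b+ cells sorted from the brains (without cerebellum) of female C57BL/6 mice (C57BL/6J in the study's methods) aged 5 months, after enzymatic digestion and myelin removal. Ctrl libraries (n = 3) came from untreated mice, 1 brain each. D0 libraries (n = 3) came from mice on a diet with PLX5622, an inhibitor of the receptor CSF1R on which microglia depend, at 1200 mg/kg for 14 days, with 2 brains pooled per library. D2 libraries (n = 3) came from mice given that same diet and then control diet for 2 days, again with 2 brains pooled per library. D0 and D2 cells are therefore the cells that remained or re-emerged after depletion, and pooling differed between Ctrl and both treated groups.

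Of 36391 barcodes, 30463 passed the filters on cells, and library totals ranged from 20257894 to 61230741 unique molecular identifiers (UMIs, each standing for 1 captured mRNA molecule). Cells were named by marker genes, with the 9 members and their pathway left out of the clustering. Microglia-like cells made up 63.4 to 86.9% of kept cells in the 8 libraries used for tests, 21784 cells in all. The 12 microglial markers summed to 17645 to 36438 CPM in them. In clusters left unnamed these markers summed to 12928 to 23742 CPM, and in border-associated macrophage-like cells to 6709 to 22551 CPM. The study left out the library D2-3, and it stood apart here too: it held 644 microglia-like cells, of which 87.9% lay in mitotic clusters, against at most 17.4% in any other library. It is given beside the results and entered only 1 alternative to the fits. The largest number of barcodes shared by any pair of libraries was 7. Ctrl-2 and Ctrl-3 named the software version Cell Ranger 3.1.0 in their file headers, as did D2-3. Ctrl-1, the D0 libraries, D2-1 and D2-2 named 3.0.2, so version and group partly coincide. Without D2-3, a fit with a term for the version sets D0 and D2 against Ctrl-1 alone.

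IL-1 alpha and IL-1 beta signal through the same receptor, IL1R1. IL-1 beta and IL-18 are made as precursors that caspase-1 cleaves after an inflammasome such as NLRP3 has assembled, whereas IL-1 alpha is active without that cleavage. Caspase-1 and mouse caspase-11, the product of Casp4, also cleave gasdermin D, whose pores release the cytokines. IL1RN occupies the receptor without signaling, and IL1R2 binds IL-1 without signaling. In the brain, microglia are known as a main source of IL-1 in injury and infection.

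The start regions of 4 members are shown, chosen by genome position and joint detection. Il1a and Il1b neighbour each other on the genome and were detected in the same cells more often than the product of their single shares. Nlrp3 and Casp4 are the other members with the highest mean excess beside them, among pairs compared in all 8 libraries. Il1a spans chr2:129299610-129309972 and Il1b spans chr2:129364570-129371139 (GRCm38, minus strand), and each overlaps a gene on the plus strand (Gm14023 and Il1bos). Nlrp3 spans chr11:59541568-59566956 and Casp4 spans chr9:5308828-5336783 on the plus strand, next to Casp1 at chr9:5298517-5307265. The windows cover 250 bases before to 50 bases after a RefSeq start site (GRCm38.p6), written 5′ to 3′ on the strand of the gene. They are chr2:129309923-129310222 for Il1a, chr2:129371090-129371389 for Il1b, chr11:59541319-59541618 for Nlrp3 and chr9:5308610-5308909 for Casp4. Capitals mark matches, on either strand, to TATAAA (the TATA box), TGANTCA (the AP-1 motif) or the kappaB consensus bound by NF-kappaB.

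Il1a: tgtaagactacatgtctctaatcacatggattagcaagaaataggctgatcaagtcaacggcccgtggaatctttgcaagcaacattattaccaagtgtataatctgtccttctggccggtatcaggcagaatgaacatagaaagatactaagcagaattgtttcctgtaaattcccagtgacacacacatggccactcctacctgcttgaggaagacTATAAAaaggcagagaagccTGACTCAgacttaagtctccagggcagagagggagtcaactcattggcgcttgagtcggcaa
Il1b: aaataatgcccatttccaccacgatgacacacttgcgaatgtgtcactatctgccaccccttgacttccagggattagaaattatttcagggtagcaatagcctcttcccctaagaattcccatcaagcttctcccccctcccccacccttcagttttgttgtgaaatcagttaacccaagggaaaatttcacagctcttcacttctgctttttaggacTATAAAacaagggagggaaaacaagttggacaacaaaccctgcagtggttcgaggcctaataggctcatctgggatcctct
Nlrp3: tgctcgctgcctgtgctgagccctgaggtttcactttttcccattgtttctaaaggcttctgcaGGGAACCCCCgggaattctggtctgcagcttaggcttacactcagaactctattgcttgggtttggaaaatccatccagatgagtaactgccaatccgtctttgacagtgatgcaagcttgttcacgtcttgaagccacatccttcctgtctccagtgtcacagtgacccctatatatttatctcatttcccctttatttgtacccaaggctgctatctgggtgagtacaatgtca
Casp4: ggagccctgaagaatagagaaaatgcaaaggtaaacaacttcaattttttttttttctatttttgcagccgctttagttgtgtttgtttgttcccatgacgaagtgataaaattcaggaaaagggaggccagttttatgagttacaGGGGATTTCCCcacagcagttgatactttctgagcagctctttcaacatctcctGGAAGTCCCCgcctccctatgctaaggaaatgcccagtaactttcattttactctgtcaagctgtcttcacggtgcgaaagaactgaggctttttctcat

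TATAAA began at -32 of Il1a and at -31 of Il1b, counted from the start site. The Il1a window also held TGANTCA at -12, a palindrome that reads the same on both strands. The Nlrp3 window held the kappaB consensus at -186, and the Casp4 window held it at -104, -103 and -50, the first pair overlapping each other. A second RefSeq window of Nlrp3, chr11:59542436-59542735, held none of these motifs. Of 32851 RefSeq windows of the same length, 13.6% held TATAAA, 7.81% held TGANTCA and 8.46% held the kappaB consensus, so a match in a single window is a description and not evidence of binding.

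Levels are given as CPM, the UMIs of a gene scaled to a fixed total of UMIs in the same cells. The reads are 3′ tags, 1 count per molecule, and are not scaled to gene length. Microglia-like cells held 94.2 to 96.4% of all Il1a UMIs in each of the 8 libraries. Their mean level was 412 ± 248 CPM (SD, n = 8 libraries), against 87.6 ± 66.3 CPM in border-associated macrophage-like cells (n = 5), 63.6 ± 54.8 CPM in neutrophil-like cells (n = 7), 42.8 ± 32.9 CPM in dendritic cell-like cells (n = 7) and 24.8 ± 29.3 CPM in monocyte-like cells (n = 7). Cells of the clusters left unnamed had 270.0 ± 194 CPM of Il1a (n = 8). The ependymal-like cells of D0-3, the only library with at least 20 of them, had 394 CPM, against 777 CPM in microglia-like cells of D0-3. These 122 ependymal-like cells were shallow, with a median of 849 UMIs and 102 Il1a UMIs in all. Their microglial markers summed to 4248 CPM. The unnamed cells overlapped microglia-like cells in the level of microglial markers, so they are not shown to be a separate cell type. Among the myeloid classes below the microglia-like cells the ranges of mean ± SD overlapped between neighbours in this order.

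Il1b had a different order. Its level was 4922 ± 2875 CPM in neutrophil-like, 3522 ± 1665 CPM in dendritic cell-like, 2337 ± 1357 CPM in monocyte-like, 1091 ± 857 CPM in border-associated macrophage-like and 626 ± 473 CPM in microglia-like cells, with the same numbers of libraries. The ranges of mean ± SD, over Ctrl, D0 and D2 libraries together, overlapped between neighbours in this order. Within each library with at least 20 cells of both classes, border-associated macrophage-like cells exceeded microglia-like cells. They had 689, 838 and 536 against 74.6, 144 and 190 CPM in Ctrl. In D0-1 and D2-2 they had 781 and 2611 against 554 and 801 CPM. Dendritic cell-like cells likewise exceeded monocyte-like cells, least in D0-1 (1193 against 1143 CPM). The other neighbours went both ways. Because microglia-like cells were far more numerous, they still held 33.0 to 83.4% of the Il1b UMIs of a library, and the lowest share was that of Ctrl-2. Endothelial-like cells, which are not a known main source of either cytokine, had 67.6 ± 118 CPM of Il1b (n = 8) and 32.5 ± 44.9 CPM of Il1a. Cells of the unnamed clusters had 445 ± 487 CPM of Il1b (n = 8).

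The antagonist and the decoy receptor were highest in neutrophil-like cells. Il1rn was at 171 ± 68.8 CPM there, at 19.95 ± 10.1 CPM in monocyte-like, 15.6 ± 22.8 CPM in dendritic cell-like and 4.28 ± 3.16 CPM in microglia-like cells. Il1r2 was at 480 ± 277 CPM in neutrophil-like and 71.2 ± 34.3 CPM in dendritic cell-like cells, 5.08 ± 5.94 CPM in monocyte-like cells and 0.946 ± 0.335 CPM in microglia-like cells. Neutrophil-like cells were 0.352 to 10.4% of kept cells in the 8 libraries and held 44.2 to 95.3% of the Il1r2 UMIs and 34.5 to 77.6% of the Il1rn UMIs.

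The inflammasome genes were spread more evenly over the myeloid classes. Nlrp3 was highest in neutrophil-like cells at 197 ± 111 CPM, with 62.8 ± 23.7 CPM in dendritic cell-like, 62.6 ± 16.5 CPM in monocyte-like and 48.0 ± 7.75 CPM in microglia-like cells. Casp1 was highest in monocyte-like cells at 99.8 ± 10.9 CPM, against 47.7 ± 5.98 CPM in microglia-like cells, and these ranges of mean ± SD did not overlap. Casp4 was at 69.1 ± 23.8 CPM in neutrophil-like, 52.2 ± 11.5 CPM in monocyte-like and 38.7 ± 6.497 CPM in microglia-like cells. Gsdmd was at 107 ± 18.7 CPM in monocyte-like and 78.1 ± 7.01 CPM in microglia-like cells. Il18 lay between 38.9 and 40.6 CPM in dendritic cell-like, microglia-like and monocyte-like cells and was at 8.53 ± 6.42 CPM in neutrophil-like cells. The astroglial-like cells of D0-3, the only library with at least 20 of them, had 245 CPM of Il18.

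**Figure D1:**
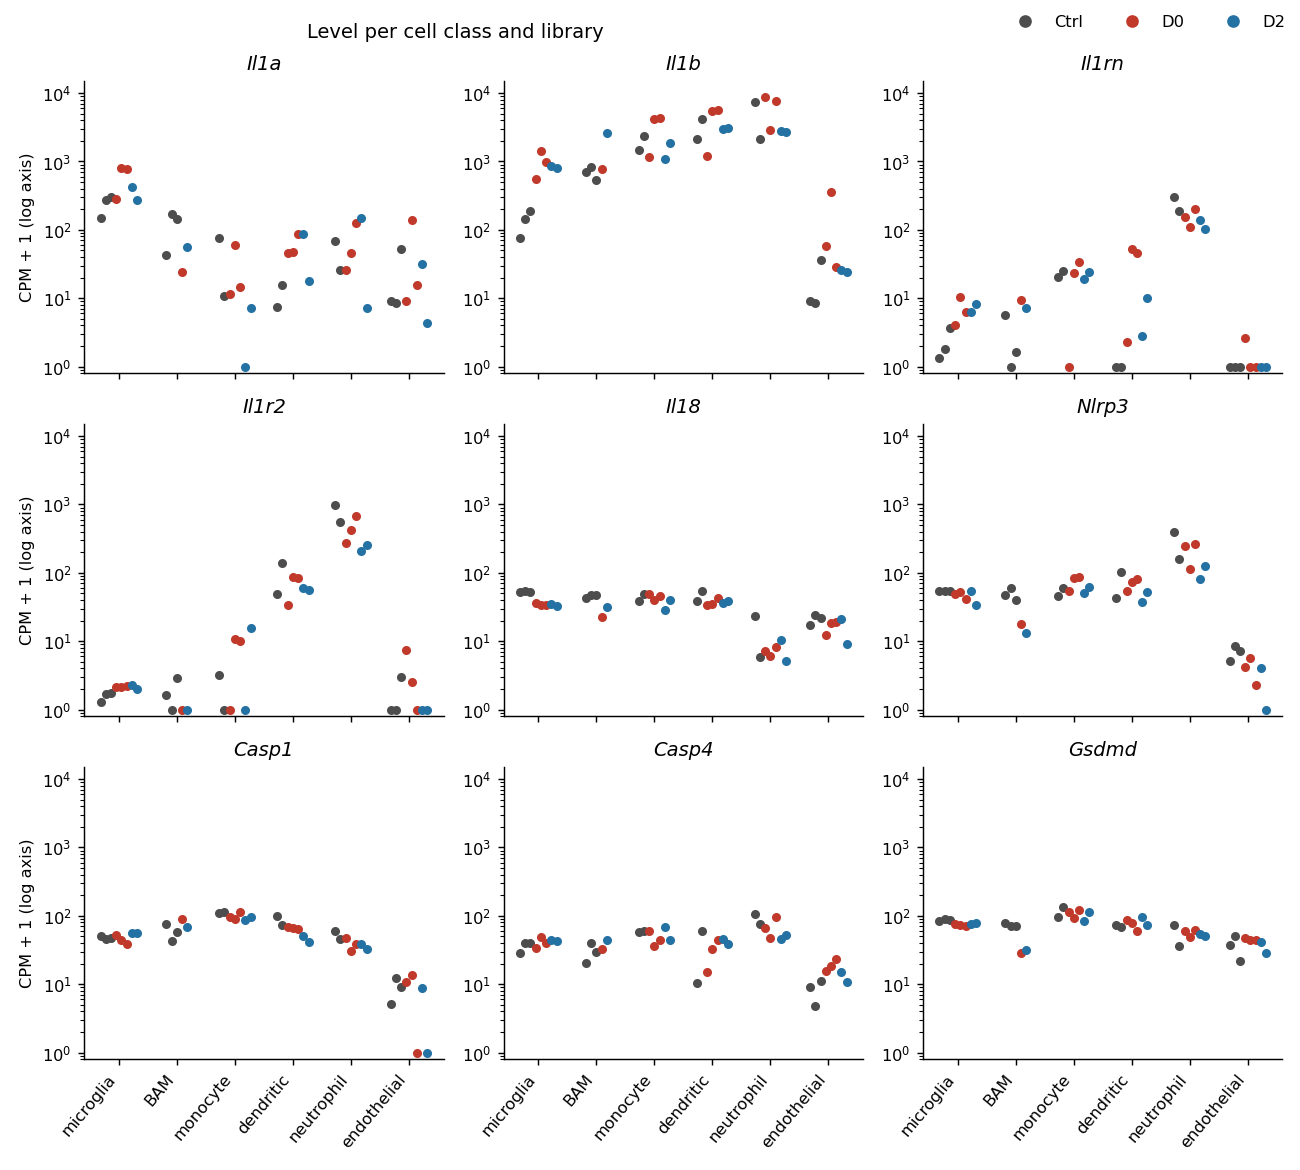
CPM + 1 of each gene on a log axis, 1 point per library with at least 20 cells of the class, for 6 cell classes (BAM, border-associated macrophage-like), coloured by group, D2-3 left out. Of these classes Il1a was highest in microglia-like cells (mean 412 CPM), Il1b in neutrophil-like cells (4922 CPM), and Il1r2 in neutrophil-like (480 CPM) and dendritic cell-like cells (71.2 CPM).

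In microglia-like cells, 4 of the 9 members were called in D0 against Ctrl: Il1a, Il1b and Il1rn rose and Il18 fell. Of all 12400 genes tested in that comparison, 19.7% were called in either direction, 12.3% higher and 7.4% lower. In D2 against Ctrl, 3 of the 9 members were called, Il1b and Il1rn higher and Il18 lower, where 18.6% of all genes were called, 10.9% higher and 7.75% lower. The median log2 fold change of the 9 members was 0.42 in D0 and 0.40 in D2, beside -0.05 and -0.03 over all genes tested. Both medians were the values of Casp4, which was not called. The members were chosen with earlier results of these data known, so the medians are descriptions and do not show a shift of the family. Fitted changes were scaled between libraries by TMM, which allows for differences in composition, so they can differ from a ratio of CPM values.

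Il1b was at 74.6, 144 and 190 CPM in the 3 Ctrl libraries, at 554, 1418 and 980 CPM in the 3 D0 libraries and at 847 and 801 CPM in D2-1 and D2-2. Every D0 and D2 library was above every Ctrl library, and the lowest D0 value, that of D0-1, was above the highest Ctrl value. The log2 fold change was 3.06 ± 0.42 (SE) in D0 (adjusted p = 0.000932) and 2.69 ± 0.44 in D2 (adjusted p = 0.00253). Il1b passed the threshold under each of the 23 alternatives to the fit in both comparisons, leaving out any library included, with log2 fold changes of 2.67 to 4.02 for D0 and 2.25 to 3.65 for D2.

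Il1a was at 147, 272 and 305 CPM in Ctrl, at 281, 813 and 777 CPM in D0 and at 427 and 277 CPM in D2-1 and D2-2. D0-2 and D0-3 were well above the Ctrl libraries, whereas D0-1 and D2-2 lay among them. Il1a rose by a log2 fold change of 1.58 ± 0.42 in D0 (adjusted p = 0.0286), and the change in D2 was 0.63 ± 0.46 (adjusted p = 0.373). The D0 call was lost without Ctrl-1, Ctrl-2, Ctrl-3, D0-2 or D0-3, where log2 fold changes ran from 1.31 to 1.79 and adjusted p from 0.0501 to 0.107, when the mitotic clusters were left out (log2 fold change 1.61, adjusted p = 0.0552) and when D2-3 was included (1.59, adjusted p = 0.177). It held under 16 of the 23 alternatives.

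Il1rn, which blocks both cytokines at the receptor, was far less abundant. It was at 0.343, 0.803 and 2.70 CPM in Ctrl (9, 15 and 66 UMIs), at 3.05, 9.49 and 5.36 CPM in D0 (58, 342 and 102 UMIs) and at 5.24 and 7.29 CPM in D2-1 and D2-2 (103 and 88 UMIs). No treated library overlapped the Ctrl range, although D0-1 came close to Ctrl-3. The share of cells with an Il1rn UMI was 0.209, 0.470 and 0.249% in Ctrl and 0.911 to 3.46% in D0. In D2-1 and D2-2 it was 1.63 and 2.55%. The 66 UMIs of Ctrl-3 thus came from few of its 3216 cells. Il1rn rose by 2.44 ± 0.65 in D0 (adjusted p = 0.0281) and by 2.36 ± 0.71 in D2 (adjusted p = 0.0450). Without Ctrl-3 these changes were 3.68 and 3.60. The D0 call was lost without Ctrl-2, D0-2 or D0-3 (log2 fold changes 2.22, 1.87 and 2.52) and with D2-3 included (2.44, adjusted p = 0.0935), and held under 19 of the 23 alternatives. The D2 call was lost without Ctrl-1, Ctrl-2, D0-3, D2-1 or D2-2 (log2 fold changes from 1.89 to 2.65, adjusted p from 0.0597 to 0.192). It was also lost with D2-3 included (adjusted p = 0.0533), in all kept myeloid cells (0.0547), without the mitotic clusters (0.0523), without the highest doublet scores (0.0519) and without cells holding S100a8 or S100a9 (0.145), and it held under 13 of the 23 alternatives.

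Il1r2 stayed near 1 CPM in microglia-like cells. It was at 0.305, 0.696 and 0.776 CPM in Ctrl, 1.16, 1.11 and 1.21 CPM in D0 and 1.32 and 0.994 CPM in D2-1 and D2-2, from 8 to 40 UMIs per library. These treated libraries were above the Ctrl libraries without overlap, whereas D2-3, at 0.453 CPM (3 UMIs), lay within the Ctrl range. The log2 fold changes of 1.17 ± 0.38 (adjusted p = 0.0564) and 1.09 ± 0.43 (adjusted p = 0.113) did not pass the threshold.

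Il18, the cytokine that shares its processing with IL-1 beta, fell. It was at 51.1, 53.4 and 51.6 CPM in Ctrl, 35.6, 33.0 and 32.9 CPM in D0 and 33.7 and 31.6 CPM in D2-1 and D2-2. The groups did not overlap, and the SD within Ctrl was 1.203 CPM. The log2 fold change was -0.42 ± 0.10 in D0 (adjusted p = 0.0198) and -0.57 ± 0.12 in D2 (adjusted p = 0.00850). The D0 call was lost without Ctrl-2, Ctrl-3, D0-2 or D0-3 (adjusted p from 0.0573 to 0.0842) and the D2 call without D2-1 or D2-2 (adjusted p 0.0559 and 0.0653), with log2 fold changes between -0.38 and -0.56. With a term for the header version, which sets D0 and D2 against Ctrl-1 alone, the changes were -0.32 and -0.47. Neither was called there. The D0 call was also lost without the filter on low counts (-0.41, adjusted p = 0.0543), without the mitotic clusters (-0.34, adjusted p = 0.0694) and with D2-3 included (-0.40, adjusted p = 0.234), and the D2 call with D2-3 included (adjusted p = 0.0852). They held under 15 and 19 of the 23 alternatives. The gene overlaps Bco2 and Tex12 on the opposite strand.

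**Figure D2:**
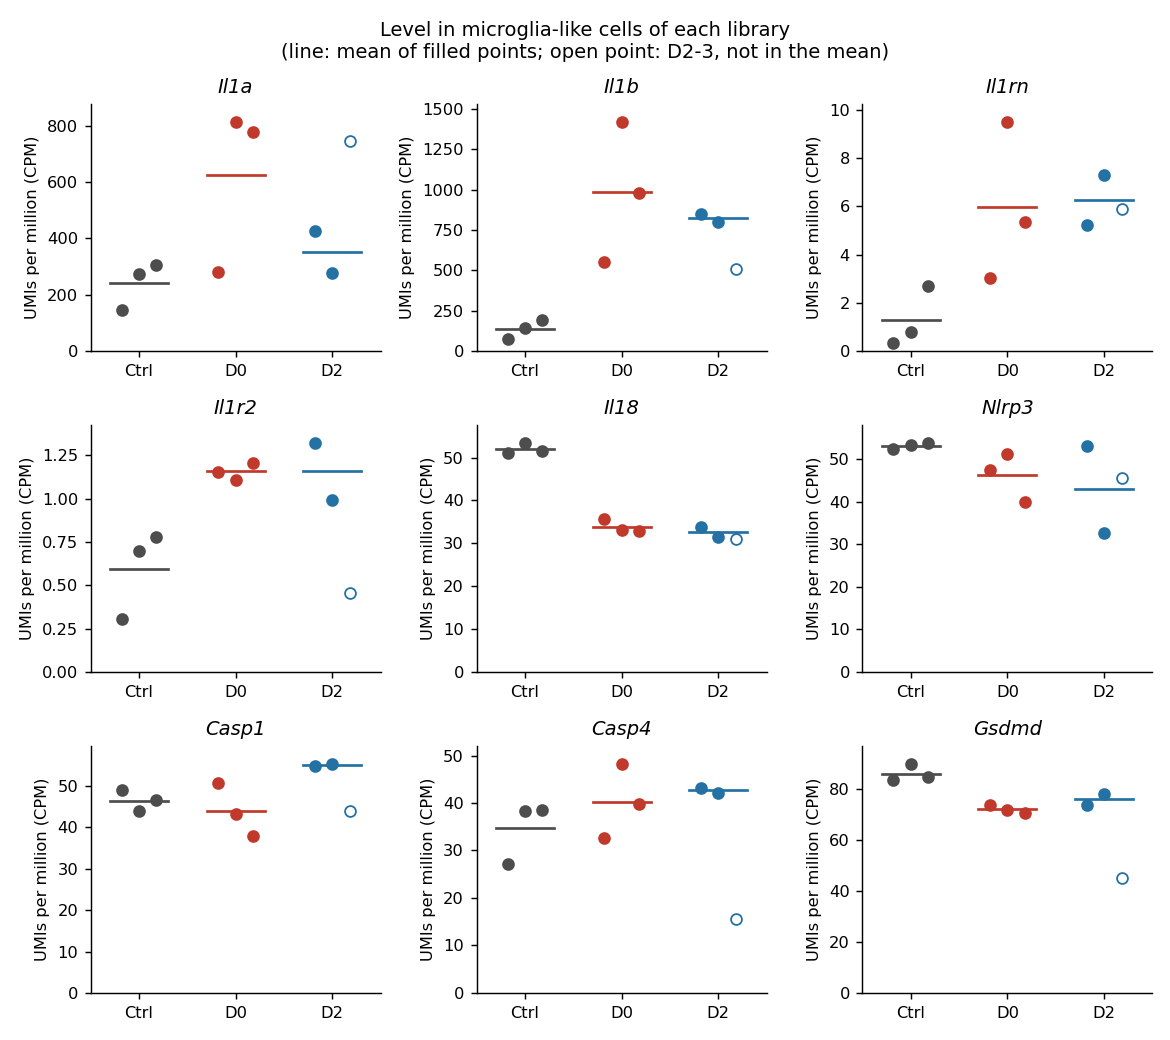
CPM of each gene in microglia-like cells, 1 point per library, with linear axes from 0 and the group mean of the filled points as a line. The open point is D2-3, which was left out of the fit and lay at 745 CPM for Il1a, 507 CPM for Il1b and 31.0 CPM for Il18.

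The sensor, the caspases and the pore gene did not pass the threshold in either comparison. Nlrp3 was at 52.4, 53.3 and 53.9 CPM in Ctrl, 47.6, 51.4 and 39.9 CPM in D0 and 53.2 and 32.7 CPM in D2-1 and D2-2. Its log2 fold changes were 0.01 ± 0.17 and -0.20 ± 0.19. Casp1 was at 48.9, 44.1 and 46.5 CPM in Ctrl, 50.8, 43.3 and 37.9 CPM in D0 and 54.8 and 55.4 CPM in D2-1 and D2-2. The D2 libraries were the highest of the 8, and the change in D2 was 0.35 ± 0.13 (adjusted p = 0.0894), beside 0.13 ± 0.12 in D0 (adjusted p = 0.487).

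Casp4 was at 27.2, 38.4 and 38.4 CPM in Ctrl, 32.6, 48.3 and 39.7 CPM in D0 and 43.3 and 42.2 CPM in D2-1 and D2-2. The D0 and Ctrl libraries overlapped, and the log2 fold changes were 0.42 ± 0.20 (adjusted p = 0.176) and 0.40 ± 0.23 (adjusted p = 0.253). Gsdmd was at 83.3, 89.7 and 84.7 CPM in Ctrl, 73.7, 71.6 and 70.5 CPM in D0 and 73.7 and 77.8 CPM in D2-1 and D2-2. Its CPM were lower in every treated library, but after TMM scaling the log2 fold changes were -0.05 ± 0.10 (adjusted p = 0.758) and -0.08 ± 0.12 (adjusted p = 0.702). With a term for the header version, which sets D0 and D2 against Ctrl-1 alone, they were 0.07 and 0.04.

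**Figure D3:**
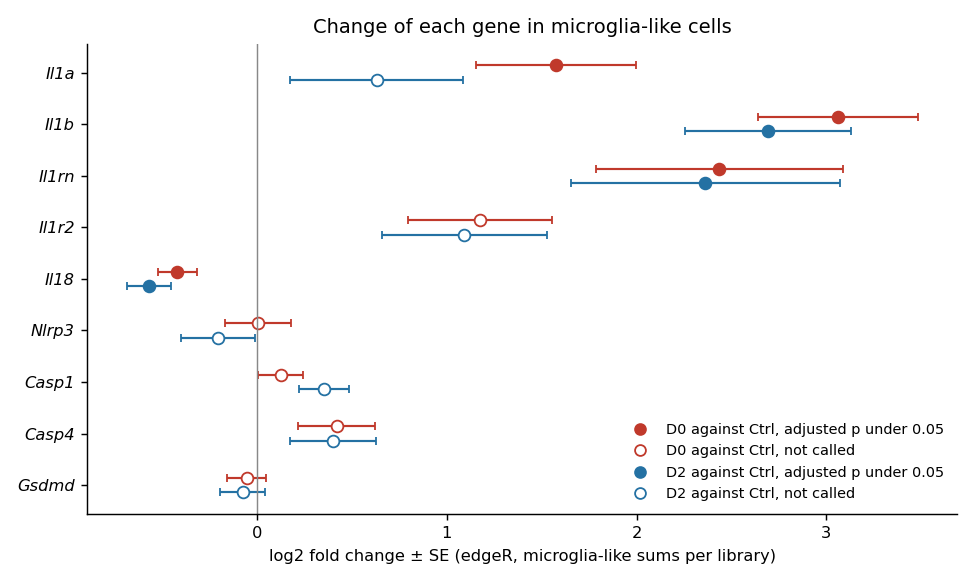
Log2 fold change ± SE of each gene in microglia-like cells from the edgeR fit over 8 libraries, D0 (red) and D2 (blue) against Ctrl, with filled points for an adjusted p under 0.05. Il1b had the largest change among the 9 genes in both comparisons (3.06 and 2.69), and Nlrp3 and Gsdmd lay between -0.20 and 0.01.

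Between D2 and D0 no gene was called in microglia-like cells by edgeR (0% of 12400), and by DESeq2 9 genes were called higher and 16 lower, none of them a member. Il1a had the largest fitted difference of the members, -0.95 ± 0.47 (adjusted p = 0.698). For Il1b it was -0.37 ± 0.44, and for the other members it lay between -0.21 and 0.23.

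RNA of neutrophils was also seen in microglia-like cells. S100a9, a defining neutrophil gene, was at 3.20 to 7.71 CPM in microglia-like cells of Ctrl, 29.6 to 96.3 CPM in D0 and 23.2 to 90.0 CPM in D2-1 and D2-2. The 13 neutrophil markers summed to 211 to 267 CPM in Ctrl, 199 to 399 CPM in D0 and 284 to 444 CPM in those D2 libraries, and 0 to 4 of them were at 0 in a library. The RNA that this S100a9 would bring was scaled by the ratio to S100a9 in neutrophil-like cells of the same library. It corresponded to at most 0.687% of the microglial Il1b UMIs, at most 5.02% of Il1rn and 2.37 to 22.1% of Il1r2. That ratio ran from 16.3 to 128 Il1b UMIs per 1000 of S100a9 between libraries, and Ctrl-1 held only 15 neutrophil-like cells. The scaling covers neutrophil-like cells alone. RNA carried over from dendritic cell-like or monocyte-like cells was not tested. Cells holding an S100a8 or S100a9 UMI were 2.39 to 6.67% of microglia-like cells in Ctrl, 12.96, 67.4 and 20.5% in D0 and 19.9 and 66.1% in D2-1 and D2-2. With all of them left out, the Il1b change in D0 was 2.95 ± 0.41 (adjusted p = 0.000774) and in D2 2.53 ± 0.42 (adjusted p = 0.00310). Without them the log2 fold change of Il1rn was 2.44 ± 0.67 in D0 (adjusted p = 0.0331) and 1.90 ± 0.79 in D2 (adjusted p = 0.145). Mitotic clusters also differed, with at most 0.209% of microglia-like cells in Ctrl and 7.75 to 17.4% in the D0 libraries, D2-1 and D2-2, and Il1b was still called in both comparisons when they were left out. The D0 calls of Il1a and Il18 and the D2 call of Il1rn were lost without them, as given above.

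Il1b RNA was also found in endothelial-like cells, which are not known for the gene and came through the same Cd11b+ sort. They had 8.22, 7.66 and 34.9 CPM of Il1b in Ctrl, 57.8, 357 and 27.5 CPM in D0 and 24.6 and 23.0 CPM in D2-1 and D2-2. In each library this was below the level in microglia-like cells given above. S100a9 was at 1196 CPM in endothelial-like and 29.6 CPM in microglia-like cells of D0-1, but at 22.3 and 32.2 CPM in D0-3. These classes thus differed in neutrophil RNA, and the part of background RNA in the microglial Il1b level was not tested. In D0-3 the ependymal-like cells had 332 CPM of Il1b, with a UMI in 44.3% of them (median 849 UMIs), and the astroglial-like cells had 155 CPM, with a UMI in 13.8% (median 6314 UMIs). Microglia-like cells of D0-3 had 980 CPM, with a UMI in 39.9% (median 10472 UMIs). Without thinning, 8.98 to 10.8% of microglia-like cells in Ctrl held an Il1b UMI (median depth 6502 to 7915 UMIs), against 3.57 to 9.09% of endothelial-like cells (median 3555 to 6619 UMIs). In D0 these shares were 33.6 to 48.5% (median 5389.5 to 10472 UMIs) and 9.70 to 24.2% (median 2857.5 to 4856 UMIs), and in D2-1 and D2-2 they were 34.9 to 41.3% and 8.72 to 9.35%. The share in Ctrl-3 was close to its endothelial value. Immediate early genes, which respond to tissue handling, summed to 8884 to 13467 CPM in microglia-like cells of Ctrl, 8227 to 13060 CPM in D0 and 8510 to 10078 CPM in D2-1 and D2-2, ranges that overlapped, and their part in the Il1b and Il1a levels was not tested.

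In the neutrophil-like, dendritic cell-like and monocyte-like classes the same comparison called none of the members. Neutrophil-like cells had 8 members among 4605 genes tested, with 0.0869% of genes called in D0 and 2.84% in D2. Dendritic cell-like cells had 9 members among 7225 genes, with no gene called in either comparison. Monocyte-like cells had 8 members among 6166 genes, with 0.487% and 1.22% called. At an unadjusted p under 0.05, 7 of these 50 tests passed in edgeR (Il1r2 in neutrophil-like cells in D2, Il1a, Il1rn and Casp1 in dendritic cell-like cells, and Nlrp3 and Il1a in monocyte-like cells), and DESeq2 called no member either. With the replicate number as a block, 2.38% and 2.24% of genes were called in monocyte-like cells, Il1b among them in D0 (1.14 ± 0.21, adjusted p = 0.0233) and Il1a in D2 (-3.53 ± 0.63, adjusted p = 0.0175). That fit called 0 genes in neutrophil-like and 1 gene in dendritic cell-like cells in D0. The D2 change of Il1a in monocyte-like cells rested on 0 Il1a UMIs in D2-1 and 3 in D2-2. Border-associated macrophage-like cells were held in numbers of at least 20 by only 1 D0 and 1 D2 library, so they were compared only in libraries with at least 10 (3 Ctrl, 2 D0 and 2 D2, of 10 to 194 cells). There 7 members were among 6491 genes tested, none was called, and 0.986% and 0% of genes were. The log2 fold change of Il1b there was 0.75 ± 0.40 in D0 (adjusted p = 0.404) and 1.46 ± 0.40 in D2 (adjusted p = 0.287). Nlrp3 in both comparisons and Il1b in D2 passed at an unadjusted p under 0.05.

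Il1b in neutrophil-like cells was at 7393 and 2124 CPM in Ctrl-2 and Ctrl-3, at 8704, 2931 and 7765 CPM in D0 and at 2805 and 2729 CPM in D2-1 and D2-2. The groups overlapped, and the log2 fold changes were 0.72 ± 0.54 (adjusted p = 0.687) and -0.35 ± 0.58 (adjusted p = 0.773). In dendritic cell-like cells Il1b was at 2107 and 4238 CPM in Ctrl-1 and Ctrl-3, at 1193, 5415 and 5667 CPM in D0 and at 2951 and 3080 CPM in D2-1 and D2-2, also with overlap (log2 fold changes 0.47 ± 0.52 and -0.09 ± 0.57). In monocyte-like cells it was at 1474 and 2382 CPM in Ctrl-2 and Ctrl-3, at 1143, 4152 and 4278 CPM in D0 and at 1080 and 1851 CPM in D2-1 and D2-2 (log2 fold changes 0.79 ± 0.49 and -0.41 ± 0.53). The libraries missing from these sentences held fewer than 20 cells of the class.

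The difference between the classes was tested as the interaction of class and condition, with the library as a covariate. The change of Il1b in D0 was lower than in microglia-like cells by 1.74 ± 0.39 on the log2 scale in neutrophil-like cells (adjusted p = 0.00216), by 2.81 ± 0.26 in dendritic cell-like cells (adjusted p = 1.13e-09) and by 1.97 ± 0.26 in monocyte-like cells (adjusted p = 4.69e-10). In D2 the corresponding differences were 2.48 ± 0.42, 2.87 ± 0.29 and 2.76 ± 0.28 (adjusted p = 1.35e-06, 2.6e-09 and 2.41e-15). Among all genes, 0.959%, 1.99% and 2.3% were called lower in these D0 interactions and 3.08%, 2.17% and 2.62% in those of D2. Each of these interaction fits had only 2 Ctrl libraries and an estimate of spread shared across genes. Their very small adjusted p-values therefore do not measure the spread of Il1b alone.

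Il1rn also differed, by -2.34 ± 0.42 in D0 and -2.60 ± 0.45 in D2 for neutrophil-like against microglia-like cells (adjusted p = 8.96e-06 and 2.74e-06). In neutrophil-like cells it was at 302 and 189 CPM in Ctrl-2 and Ctrl-3, 151, 108 and 201 CPM in D0 and 140 and 102 CPM in D2-1 and D2-2. Il1r2 differed in D2, by -1.96 ± 0.50 (adjusted p = 0.00469), with 970 and 551 CPM in Ctrl-2 and Ctrl-3 and 209 and 254 CPM in D2-1 and D2-2 in neutrophil-like cells. Il1a differed for monocyte-like against microglia-like cells, by -2.05 ± 0.38 in D0 and -3.85 ± 0.65 in D2 (adjusted p = 3.16e-05 and 2.25e-06), from 0 to 67 Il1a UMIs per monocyte-like library. With 0 of these UMIs in D2-1 and 3 in D2-2, the D2 difference has no meaning as a size. Casp1 differed in D2 for dendritic cell-like cells, by -1.28 ± 0.34 (adjusted p = 0.0286), and this call was lost when libraries with 10 or more cells were admitted (-1.05, adjusted p = 0.103). Il1rn in dendritic cell-like cells was at 0 UMIs in Ctrl-1 and Ctrl-3, where 3 UMIs would be 9.55 and 14.6 CPM, and at 1.27, 52.1 and 45.0 CPM in D0, so its fitted change has no meaning as a size.

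To ask whether Il1a and Il1b were detected in the same cells, each microglia-like cell was thinned to 2000 UMIs, which left out 25 to 194 shallower cells per Ctrl library, 32 to 155 per D0 library and 229 and 116 in D2-1 and D2-2. Il1a was then detected in 21.1, 26.4 and 27.7% of cells in Ctrl, 27.0, 45.0 and 43.7% in D0 and 36.4 and 21.8% in D2-1 and D2-2. Il1b was detected in 5.002, 5.94 and 6.64% of cells in Ctrl, 23.1, 33.5 and 27.1% in D0 and 31.4 and 21.3% in D2-1 and D2-2. The Il1b shares of the treated libraries lay above the Ctrl range without overlap (exact two-sided permutation test over libraries, p = 0.1 in D0 and p = 0.2 in D2, the smallest p these group sizes allow). The Il1a shares overlapped (exact permutation p = 0.2 and 0.6).

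Both genes were detected in 2.03, 3.04 and 3.91% of cells in Ctrl, 10.9, 23.5 and 19.4% in D0 and 16.5 and 9.53% in D2-1 and D2-2. These numbers were larger than the product of the single shares in every library. The ratio of observed to expected double-positive cells was 1.92, 1.94 and 2.13 in Ctrl, 1.75, 1.56 and 1.64 in D0 and 1.44 and 2.06 in D2-1 and D2-2. Over the 8 libraries its mean log2 value was 0.84 above 0 (exact sign-flip permutation test, p = 0.00781, the smallest p for 8 libraries). All D0 ratios were below all Ctrl ratios (1.65 ± 0.09 against 2.00 ± 0.11, exact permutation p = 0.1). They overlapped without thinning, where D0-1 was at 1.36 and Ctrl-1 and Ctrl-2 at 1.34 and 1.35 (exact permutation p = 0.3), and in all kept myeloid cells, where D0-1 was at 1.65 and Ctrl-1 and Ctrl-2 at 1.60 and 1.49 (exact permutation p = 0.4). The largest value this ratio can take is lower where more cells hold Il1a.

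In D0-2, for example, Il1b was detected in 52.4% of the Il1a-positive cells and in 18.2% of the others, with means of 4.38 and 0.698 Il1b UMIs per cell. In Ctrl-1 the same shares were 9.62 and 3.77%. The tenth of cells with most Il1b UMIs held 69.2 to 85.1% of them in D0-1 to D2-2 and 100% in the Ctrl libraries, where fewer cells than that were positive, and the highest cell of a library held 14 to 51 Il1b UMIs out of 2000. A rarely detected gene also has a high share of this kind, so the share alone does not show concentration. In D0-2 it was 70.3% for Il1b and 76.8% for Gsdmd, detected in 33.5 and 13.4% of cells. The highest cell of D0-2 held 51 Il1b UMIs, and for Gsdmd the highest held 3.

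**Figure D4:**
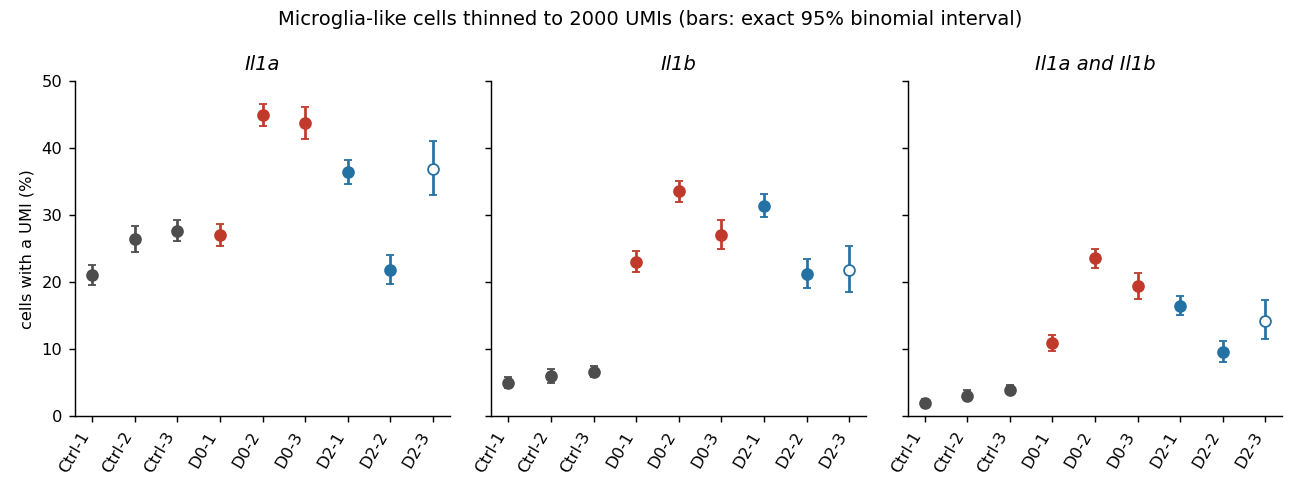
Share of microglia-like cells, each thinned to 2000 UMIs, in which Il1a, Il1b or both were detected, by library, with exact (Clopper-Pearson) 95% binomial intervals that cover counting error only; D2-3 is the open point. The Il1b share was 5.002 to 6.64% in Ctrl and 21.3 to 33.5% in the D0 libraries, D2-1 and D2-2.

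The balance between the cytokines shifted toward Il1b. The ratio of Il1b to Il1a UMIs was 0.509, 0.528 and 0.622 in Ctrl, 1.97, 1.75 and 1.26 in D0 and 1.99 and 2.90 in D2-1 and D2-2. Ctrl libraries had more Il1a than Il1b UMIs and the treated libraries had more Il1b, without overlap (exact permutation p = 0.1 and 0.2, the smallest possible). In D2-3 the ratio was 0.680. The ratio of Il1b to its antagonist Il1rn was 217, 179 and 70.3 in Ctrl, 182, 149 and 183 in D0 and 162 and 110 in D2-1 and D2-2, overlapping between the groups (exact permutation p = 0.8 in both).

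Among the 36 pairs of members, 20 could be compared in all 8 libraries. Il1a and Il1b had the highest geometric mean ratio of these at 1.79 (range 1.44 to 2.13). Casp4 was next, at 1.44 beside Il1b (range 1.26 to 2.26) and 1.34 beside Il1a (0.997 to 1.49). Nlrp3 followed at 1.36 (0.809 to 1.64) and 1.24 (0.928 to 1.46). Of these Casp4 and Nlrp3 pairs, only Casp4 with Il1b was above 1 in every library. Il18 was found with Il1b less often than the product of the shares, at 0.823 (range 0.504 to 1.35). Casp1 and Gsdmd were close to 1 with either cytokine, between 0.948 and 1.06. Il1rn was too rare for most pairs, with 1.80 beside Il1b over 2 libraries. Over 4984 genes, those with the highest ratio beside Il1b were Dusp2 (2.43), Tnfsf9 (2.34), Pim1 (2.13), Marcksl1 (2.04) and Csrnp1 (2.02), where the median gene had 0.955. Beside Il1a they were Dusp2 (1.95), Tnfsf9 (1.91), Il1b, Csrnp1 (1.74) and Marcksl1 (1.71). Il1b thus had rank 3 beside Il1a, whereas Il1a had rank 19 of the 4984 genes beside Il1b. Dusp2 encodes a phosphatase of MAP kinases and Tnfsf9 a ligand of the TNF family. These ratios are descriptions of cells that share libraries and depth.

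Within the microglia-like cells, a cluster led by Arl5c, Dusp2, Gadd45b and Cxcl2 had the highest level of both cytokines, although neither was used to form it: 1702 ± 662 CPM of Il1b and 957 ± 472 CPM of Il1a (n = 8 libraries). In that cluster Il1b was at 586, 1678 and 1492 CPM in Ctrl, 1396, 2449 and 2738 CPM in D0 and 1487 and 1787 CPM in D2-1 and D2-2. The ranges of Ctrl and D0 overlapped there, whereas they did not in any of the 6 other clusters that had at least 2 Ctrl libraries with 20 cells. A further cluster had only 1 such Ctrl library and went the other way. Il1b was at 185 CPM in that Ctrl library and at 48.9 and 171 CPM in its 2 D0 libraries. In the cluster led by P2ry13 and Bank1, for example, Il1b was at 21.9 to 32.7 CPM in Ctrl and 90.6 to 100.1 CPM in D0. It was at 11.4 CPM in D2-1, the only D2 library with at least 20 of these cells, and that value rests on very few UMIs. In the cluster led by Chst2 and Npnt Il1b was at 31.7 to 77.9 CPM in Ctrl and 215 to 301 CPM in D0. These cluster values were not tested. Nlrp3 (77.0 CPM) and Casp4 (75.0 CPM) also had their highest mean in the Arl5c cluster. The mean of Il1rn there was 19.3 ± 23.9 CPM, with 1 Ctrl library at 76.8 CPM and another at 2.48 CPM. Mitotic cells, led by Top2a and Mki67, had 800 ± 209 CPM of Il1b in the 5 treated libraries. Il18 was highest, at 63.2 CPM, in the cluster led by the interferon-response genes Ifit3 and Ifit2, as were Gsdmd (96.8 CPM) and Casp1 (59.7 CPM).

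**Figure D5:**
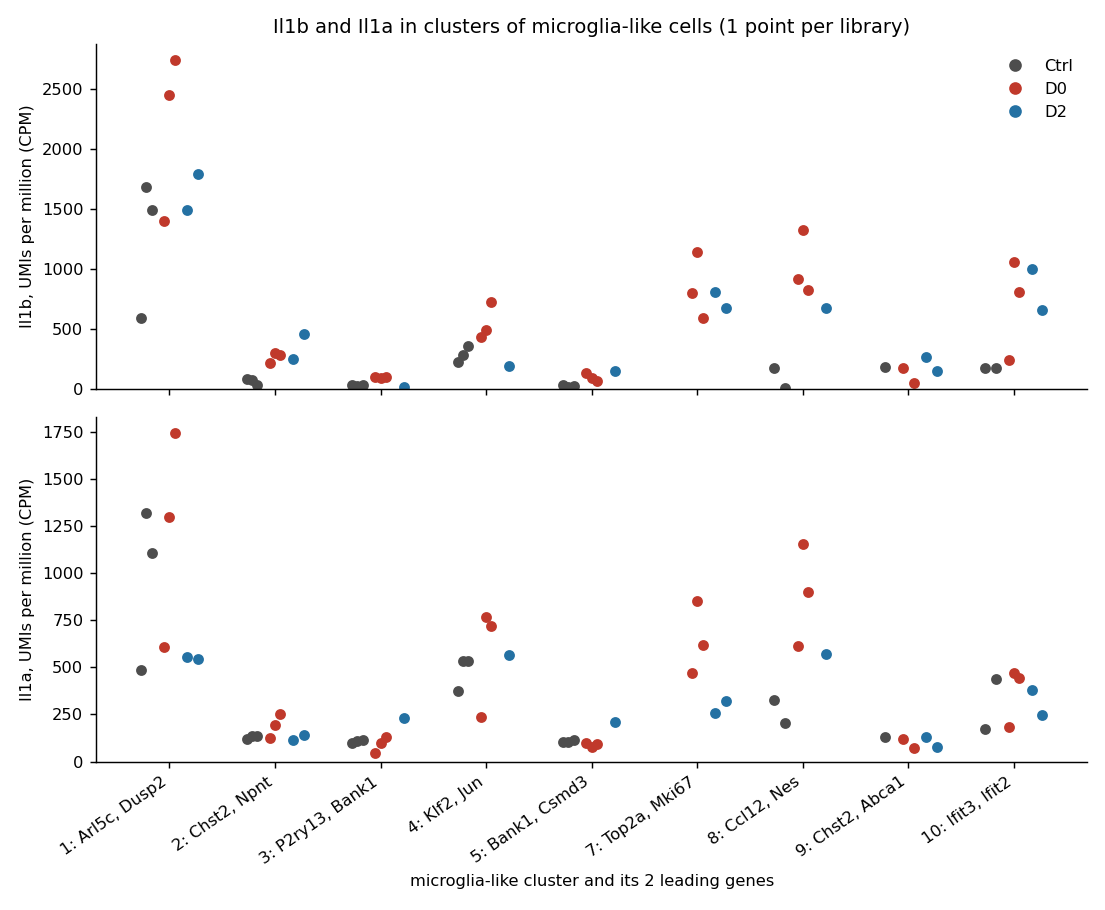
CPM of Il1b (upper panel) and Il1a (lower panel) in each microglia-like cluster, 1 point per library with at least 20 cells, coloured by group. Il1b in the cluster led by Arl5c and Dusp2 averaged 1702 CPM, against 55.0 CPM in the cluster led by P2ry13 and Bank1.

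Other genes of the pathway came from a list of 47, of which 43 were found by symbol and 35 tested in microglia-like cells. In D0, 3 rose (Il1r1, Sigirr and Gbp2) and 3 fell (Myd88, Casp8 and Txnip). In D2, 4 rose (Il1r1, Irak3, Gbp2 and Gbp5) and 4 fell (Myd88, Tollip, Casp8 and Txnip), beside 19.7% and 18.6% of all genes called, and the median log2 fold change of the list was -0.15 and 0.00.

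Il1r1, the signaling receptor for both cytokines, was rare, at 0.610 to 1.07 CPM in Ctrl, 1.498 to 3.20 CPM in D0 and 3.76 and 3.73 CPM in D2-1 and D2-2 (log2 fold changes 1.46 ± 0.36 and 2.24 ± 0.39, adjusted p = 0.0221 and 0.00371). Endothelial-like cells were 1.13 to 2.17% of kept cells in Ctrl, 1.99 to 5.08% in D0 and 4.37 and 5.75% in D2-1 and D2-2. Whether RNA carried over from other cells contributed to so low an Il1r1 level was not tested. Myd88, the adaptor that the receptor recruits, was at 33.6 to 39.5 CPM in Ctrl, 22.8 to 24.7 CPM in D0 and 22.9 and 20.2 CPM in D2-1 and D2-2 (-0.44 ± 0.13 and -0.70 ± 0.15, adjusted p = 0.0422 and 0.0110). Txnip, which can bind NLRP3, was at 793 to 955 CPM in Ctrl, 393 to 569 CPM in D0 and 464 and 394 CPM in D2-1 and D2-2 (-0.68 ± 0.17 and -0.96 ± 0.19, adjusted p = 0.0204 and 0.00754). Casp8, a caspase of cell death that can also process IL-1 beta, was at 138 to 152 CPM in Ctrl, 90.0 to 106 CPM in D0 and 95.3 and 96.3 CPM in D2-1 and D2-2 (-0.33 ± 0.10 and -0.47 ± 0.11). Gbp2, an interferon-induced GTPase, was at 5.30 to 6.63 CPM in Ctrl, 7.78 to 13.3 CPM in D0 and 21.0 and 23.5 CPM in D2-1 and D2-2 (1.11 ± 0.21 and 1.98 ± 0.23). Gbp5, another GTPase of that family, was at 12.3 to 18.1 CPM in Ctrl, 10.4 to 18.6 CPM in D0 and 23.4 and 22.3 CPM in D2-1 and D2-2 (0.23 ± 0.20 and 0.75 ± 0.23, adjusted p = 0.472 and 0.0460). Pycard, the adaptor that joins NLRP3 to caspase-1, was at 363 to 423 CPM over the 8 libraries and did not pass the threshold (0.24 ± 0.09 and 0.03 ± 0.11).

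Likeness to other genes was measured as Pearson's r of log2(CPM + 10) over 60 sums, each of 1 class in 1 library, from 11 classes and 12364 genes, as a description of points that share libraries. Il1a was most like Gdf15 (0.820), Bhlhe41 (0.803) and Pon3 (0.8004), and the member most like it was Il18 (0.362). Il1b was most like Tlr2 (0.895), Csf2ra (0.893) and Nfkbiz (0.888), with Nlrp3 the closest member (0.806). Il1r2 was most like Adam8 (0.938), AA467197 (0.930) and Cd300lf (0.925), and Il1rn most like A530064D06Rik (0.919), Tarm1 (0.917) and Clec4d (0.917), and these 2 members were each other's closest (0.837). Il18 was most like Rtn1 (0.805), Acer3 (0.764) and Acss1 (0.749). Nlrp3 was most like Themis2 (0.908), Alox5ap (0.9002) and Csf2rb (0.898), and Casp4 like Samsn1 (0.883), Fes (0.868) and Rhog (0.861). Casp1 was most like Fam49b (0.905), Elf4 (0.905) and Ptpn18 (0.904), and Gsdmd like Tm6sf1 (0.840), Rnf130 (0.835) and Ucp2 (0.833).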

How the data were processed

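Live Cd11b+ cells of 9 brain libraries were profiled with 10x 3′ v3 chemistry. Per the submitters' notes the authors aligned reads to mm10 with Cell Ranger 3.1.0, and the deposited matrices hold raw UMI counts per gene and cell (6 file headers name version 3.0.2). A barcode was kept when it held between 500 and 20000 UMIs, no fewer than 200 genes and a mitochondrial share of 10% or less. They were clustered with scanpy 1.11.5 (3000 variable genes without the members and their pathway, 10 principal components, 20 neighbours, Leiden resolution 0.6) and named from fixed markers. No doublets were removed, and leaving out the top 4% of Scrublet scores was an alternative. Cells of D2-3 and those above 20000 UMIs were placed by 30 neighbours.

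Counts were summed per class and library (at least 20 cells) and tested with edgeR 4.0.16 (quasi-likelihood, TMM, filterByExpr, Benjamini-Hochberg adjusted p under 0.05) in R 4.3.3 over 8 libraries, without D2-3 as in the study. DESeq2 1.42.0 was an alternative. Shares were compared by exact two-sided permutation over libraries in cells thinned to 2000 UMIs. Replicates are separate libraries, of pooled brains in D0 and D2, so p-values refer to the spread between libraries and not between cells. The edgeR fits share their estimate of that spread across genes, so their adjusted p-values do not measure the spread of 1 gene alone. In simulated counts for D0 against Ctrl (12255 genes), 93% of 100 genes changed by 1 on the log2 scale were recovered and 6.31% of calls were false. The counts were drawn from the spread that edgeR itself had fitted, with as many genes raised as lowered. These shares therefore describe that model and do not measure recovery or false calls in the data. The changed genes were drawn from those with a mean above 20 CPM, so the recovery does not hold for rare genes such as Il1rn and Il1r2. Intervals are exact (Clopper-Pearson, 95%) and, like the floor of 3 UMIs, cover counting error only. Same-numbered deviations from group means correlated at 0.414, 0.189 and 0.170 between Ctrl and D0 and at 0.0435 and 0.0717 between Ctrl and D2. Differently numbered libraries of Ctrl and D0 ranged from -0.383 to 0.302. Deviations from the mean of few libraries also offset each other, so these values do not show that libraries were paired. The replicate number entered the fits only as a block in an alternative. The genes named by rule are the members and at most 10 called pathway genes whose higher group reached 20 CPM. The 3 genes most like each member and the 5 with the highest observed-to-expected ratio beside Il1a and Il1b were also named by rule. Pycard, the other pathway genes called and the leading genes of clusters were chosen after their values were seen. Members and lists were chosen with earlier results of these data known.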

Additional observations from a re-analysis of the deposited data

Results flagged for a closer look

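The change of Il1b against Ctrl differed between microglia-like cells and 3 other myeloid classes by the test of the interaction itself. The difference in log2 fold change (other class minus microglia-like) was -1.74 in D0 and -2.48 in D2 for neutrophil-like cells, -2.81 and -2.87 for dendritic cell-like cells, and -1.97 and -2.76 for monocyte-like cells. For Il1rn in neutrophil-like cells it was -2.34 in D0 and -2.60 in D2, and for Il1r2 it was -1.96 in D2. For Il1a in monocyte-like cells it was -2.05 in D0 and -3.85 in D2, and for Casp1 in dendritic cell-like cells -1.28 in D2. Monocyte-like cells held 0 Il1a UMIs in D2-1 and 3 in D2-2, so the value of -3.85 has no meaning as a size.

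The library D2-3, which was left out of the tests above, had microglia-like levels above every Ctrl library for Il1a (745 CPM), Il1b (507 CPM) and Il1rn (5.89 CPM). Its microglia-like levels of Il18 (31.0 CPM), Casp4 (15.6 CPM) and Gsdmd (44.9 CPM) were below those of every other library. For Il1r2 it lay within the Ctrl range (0.453 CPM, 3 UMIs). Of its microglia-like cells, 87.9% lay in mitotic clusters.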

How the results depend on the processing

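The fitted values compared under alternatives were a subset. They covered all members in microglia-like cells against Ctrl and Il1a in D2 against D0. They also covered Il1b in neutrophil-like, dendritic cell-like and monocyte-like cells and the interactions that were called. Of these 531 values, 472 kept their direction and side of the threshold, 34 lost and 7 gained a call, and 18 changed sign. Other member values were not counted. With D2-3 included, 1 member was called in microglia-like cells in D0 and 1 in D2 (all genes 460 higher and 48 lower, and 930 and 396). Without mitotic clusters 2 members were called in D0 (all genes 891 and 354). Leaving out 1 library gave 1 to 4 members in D0 and 1 to 3 in D2, with 975 genes higher and 245 lower in D0 without D0-2, and 804 and 304 in D2 without D2-2. With the header version as a term D0 and D2 were set against Ctrl-1 alone, so the number of genes called is not given. In thinned cells 946 genes were called higher and 356 lower in D0, and 887 and 547 in D2. Without the filter on low counts, dendritic cell-like cells had 2 members called in D0 and 1 in D2, and monocyte-like cells 1 in each; leaving out 1 library gave 0 to 1 in dendritic cell-like cells in D0. In border-associated macrophage-like cells the alternatives other than at least 10 cells per library were not run. With at least 10 cells per library, 1 member differed between dendritic cell-like and microglia-like cells in D2.

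With the replicate number as a block, microglia-like cells had 4 and 3 member calls, monocyte-like cells had 1 in D0 (Il1b) and 1 in D2 (Il1a), no other member call changed, neutrophil-like cells had 2 genes higher and 64 lower in D2 (24 and 107 without the block), and the D2 change of Il1b turned to 0.22 in dendritic cell-like and 0.50 in monocyte-like cells.

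Among the fitted values counted above, further uncalled log2 fold changes changed sign as follows. Leaving out 1 library, Nlrp3 in microglia-like cells ran from -0.110 to 0.104 in D0 (below 0 without Ctrl-1 or D0-2) and from -0.536 to 0.0762 in D2, and Gsdmd from -0.0927 to 0.00213 and from -0.144 to 0.0220. Il1b in D2 ran from -0.813 to 0.626 in neutrophil-like cells (above 0 without Ctrl-2) and from -0.528 to 0.585 in dendritic cell-like cells (above 0 without Ctrl-3 or D2-1). Nlrp3 in D0 was also -0.0226 with no upper UMI limit, -0.0190 in thinned cells, -0.00642 without S100a8 or S100a9 cells and -0.0155 without high doublet scores. Gsdmd was 0.0658 in D0 and 0.0435 in D2 with the header version as a term, and 0.0175 in D0 without mitotic clusters. Il1b in monocyte-like cells in D2 was 0.00524 with at least 10 cells. The D2 minus Ctrl difference of the Il1a share ran from -3.23 to 11.3 points without 1 library and was -1.23 without thinning. That of the observed-to-expected ratio ran from -0.55 to 0.06 (0.0593 without D2-1). That of Il1b to Il1rn ran from -62.2 to 11.3 in D2 (6.35 without D2-2) and from -26.7 to 46.8 in D0, and was -46.6 in cells thinned to 1000 UMIs (D0) and 4.48 without S100a8 or S100a9 cells (D2). The cause of these changes was not tested. Il1rn and Il1r2 rest on few UMIs in microglia-like cells, which limits their precision.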
